A study of Rattus norvegicus with 3 samples.

Results

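Cells that receive a growth factor signal through the Ras, Raf, MEK and ERK kinases also switch on genes that turn this signal off. The genes described here are 10 members of that negative feedback, taken by name from a list: the ERK phosphatases Dusp1, Dusp2, Dusp4, Dusp5, Dusp6 and Dusp9, and the receptor-level inhibitors Spry1, Spry2, Spry4 and Spred1. RefSeq accessions given for the probes tied 8 of the 10 genes to a probe, out of 13301 genes with a named probe in all. Dusp6 and Spry1 had no probe with such a name and were not analysed here. All 8 measured members were well above background on at least 1 array, as were 10009 genes in all, and 5 of the 8 were so on all 3 arrays.

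The study set 2 sarcoma cell lines against mesenchymal stem cells (MSCs) of the same rat strain, F344, to find pathways that differ between them. COS1NR is an osteosarcoma line and MFH1NR a malignant fibrous histiocytoma line, both grown from tumors that 4-HAQO had induced, and the methods describe both as carrying mutant p53. The MSCs came from femur bone marrow, were selected only by their adherence to plastic, were not sorted by surface markers, and were kept in medium with more serum than that of the lines. Cy3-labeled cRNA of each cell type was hybridized to 1 whole rat genome array, so no difference could be set against a spread between cultures and none was tested. The array of MSCs was scanned apart from those of the sarcomas, so that cell type, medium and scan cannot be told apart in a comparison with MSCs.

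The dual-specificity phosphatases remove phosphates from both the threonine and the tyrosine that activate a MAP kinase. Dusp1, Dusp2, Dusp4 and Dusp5 are inducible enzymes of the nucleus, whereas Dusp6 and Dusp9 act in the cytoplasm. Dusp5 and Dusp6 are selective for ERK, while Dusp1 also acts on JNK and p38. Sprouty and Spred proteins act higher up, between the receptor tyrosine kinases and Raf. Many of these genes are immediate early or delayed early targets of ERK itself, so their transcripts are often read as a record of ERK signaling, and serum induces several of them.

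Promoters of 9 members were found in the RefSeq sequences of the GRCr8 build, each as the 250 bases before and 50 after the annotated start of the gene, with a pair of entries for Spry2 and none for Dusp4. This reference is not of the F344 strain. The promoters of Dusp1, Dusp2, Dusp5 and Dusp9 are shown because these are the phosphatases with both a probe and a promoter entry. They lie on chr10:17184603-17184902, chr3:135009386-135009685, chr1:262543524-262543823 and chrX:156502987-156503286, all on the plus strand. Capitals mark the letters TGACG, which is the half-site of the cAMP response element, the E-box CACGTG and the CArG box bound by serum response factor, each searched on both strands.
Dusp1: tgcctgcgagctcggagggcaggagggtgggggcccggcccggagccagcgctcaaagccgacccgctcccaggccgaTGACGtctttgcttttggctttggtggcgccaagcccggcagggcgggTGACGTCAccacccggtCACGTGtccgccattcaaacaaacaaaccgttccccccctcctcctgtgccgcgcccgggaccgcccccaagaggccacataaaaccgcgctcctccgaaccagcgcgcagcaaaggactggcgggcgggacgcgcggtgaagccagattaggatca
Dusp2: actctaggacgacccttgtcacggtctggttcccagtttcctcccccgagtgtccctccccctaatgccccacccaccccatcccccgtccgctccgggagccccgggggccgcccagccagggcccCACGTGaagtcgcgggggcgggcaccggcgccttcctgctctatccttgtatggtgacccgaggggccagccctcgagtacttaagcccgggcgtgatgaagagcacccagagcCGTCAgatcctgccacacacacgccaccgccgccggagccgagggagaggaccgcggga
Dusp5: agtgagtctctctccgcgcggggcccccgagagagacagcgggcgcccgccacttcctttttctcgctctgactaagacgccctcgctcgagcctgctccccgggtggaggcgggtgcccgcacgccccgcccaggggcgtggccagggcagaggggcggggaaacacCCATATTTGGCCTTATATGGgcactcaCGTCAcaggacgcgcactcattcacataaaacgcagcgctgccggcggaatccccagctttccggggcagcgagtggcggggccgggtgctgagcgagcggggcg
Dusp9: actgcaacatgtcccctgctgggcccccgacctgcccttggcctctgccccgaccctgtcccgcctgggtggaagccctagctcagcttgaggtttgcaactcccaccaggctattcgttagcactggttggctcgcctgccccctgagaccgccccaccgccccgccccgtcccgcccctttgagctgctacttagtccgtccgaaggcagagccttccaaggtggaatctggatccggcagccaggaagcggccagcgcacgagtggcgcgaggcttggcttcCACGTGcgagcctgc
The Dusp5 window held 2 CArG boxes next to each other, beginning 82 and 72 bases before the start, and none of the other 8 members with a promoter entry had one. A CArG box was present in 1.64% of all 33469 promoters of the same length. The Dusp1 window held the full cAMP response element TGACGTCA, beginning 124 bases before the start, which was present in 1.83% of all promoters and contains the half-site on either strand. The half-site TGACG alone was found in Dusp1, Dusp2, Dusp5 and Spry2 and in 21.2% of all promoters. CACGTG was found in Dusp1, Dusp2 and Dusp9 and in 6.42% of all promoters. The GC box GGGCGG, not capitalized here, was in 8 of the 10 member entries and in 33.1% of all promoters. The member promoters were rich in G and C, with a GC content from 56.0% to 76.3% against a median of 51.7% over all promoters, and held from 17 to 38 CG dinucleotides against a median of 7. These matches describe the letters of the windows, and no binding was measured.

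Each intensity is given below as a multiple of the 75th percentile of its own array, so that a value can be compared between arrays but not between genes. The 75th percentile was an intensity of 589 in MSCs, against 774 for COS1NR and 994 for MFH1NR. Between 56.6% and 59.7% of the spots were well above background. Each member probe had a single spot per array. Replicate spots of other probes on the same array had a median SD between 0.07 and 0.08 in log2, and the error that the scanner software gave for the member spots well above background lay between 10% and 22.0% of their intensity. For genes with 2 probes, the log2 ratio of a sarcoma to MSCs differed between the probes by a median of 0.28 for COS1NR and 0.31 for MFH1NR, with a 90th percentile of 0.91 and 0.99. None of these covers the spread between cultures.

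Feedback genes were mostly lower in COS1NR than in MSCs. Of the 8 measured members, 6 were at least 2-fold lower in COS1NR (Dusp2, Dusp5, Dusp9, Spry2, Spry4 and Spred1), where 22.3% of all genes used were at least 2-fold lower. None was at least 2-fold higher, beside 21.7% of all genes used. The median log2 ratio of COS1NR over MSCs was -1.87 over the members and 0.11 over all genes used. In MFH1NR, 5 members were at least 2-fold lower than in MSCs (Dusp1, Dusp2, Dusp5, Spry4 and Spred1), beside 23.2% of all genes used. Dusp9 was at least 2-fold higher there, beside 20.8% of all genes used. The median log2 ratio of MFH1NR over MSCs was -1.53 over the members and 0.01 over all genes used. Dusp2, Dusp5, Spry4 and Spred1 were at least 2-fold lower in both sarcomas, as were 14.6% of all genes used. Dusp2 was well above background only in MSCs, so once it passed the filter it could only be lower elsewhere. Among the 5 members well above background on all arrays (Dusp1, Dusp5, Spry2, Spry4 and Spred1), 4 were at least 2-fold lower in COS1NR, beside 15.1% of all such genes, and 4 in MFH1NR, beside 16.2%.

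The sarcomas also differed from each other. MFH1NR had 3 members at least 2-fold higher than COS1NR (Dusp9, Spry2 and Spry4), beside 13.9% of all genes used, and 1 at least 2-fold lower, Dusp1, where 16.0% of all genes used were. The median log2 ratio of MFH1NR over COS1NR was 0.61 over the members and -0.11 over all genes used. MSCs had the highest level of 5 of the 8 members, beside 35.6% of all genes used, and COS1NR had the lowest level of 5, beside 25.6%. All 3 comparisons share arrays, so their counts are not independent of each other.

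**Figure D1:**
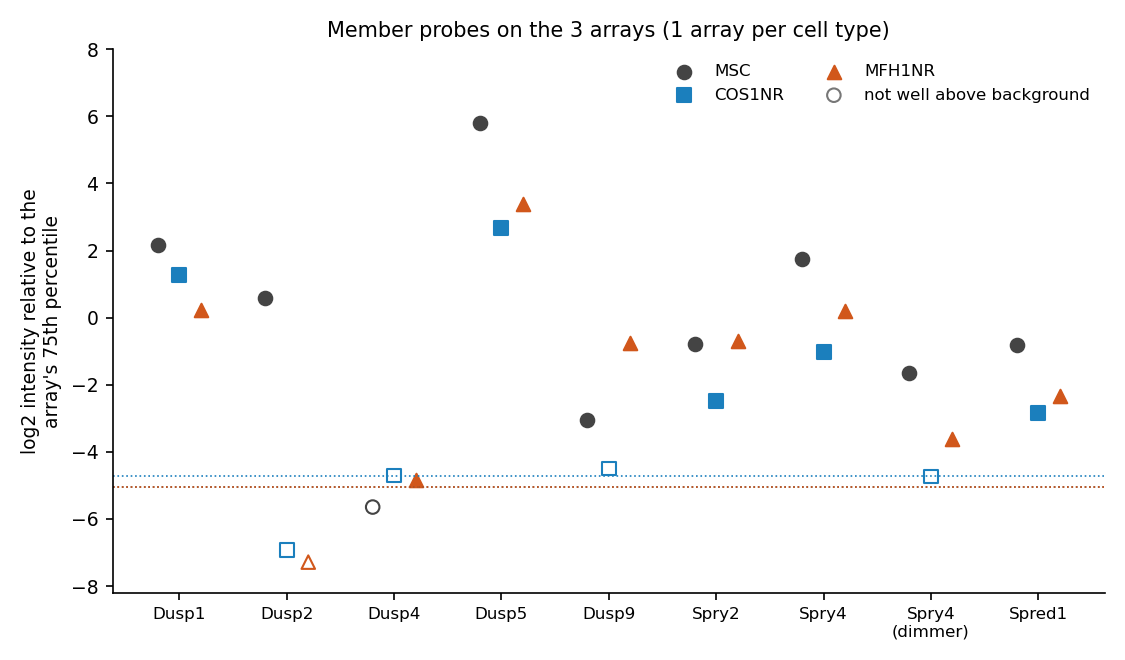
Log2 intensity of the 9 member probes relative to the 75th percentile of the array, for MSCs (circles), COS1NR (squares) and MFH1NR (triangles), with open symbols for spots not well above background and dotted lines at the lowest level well above background on each array. Dusp2 is filled only in MSCs, and the MSC symbol is the highest of the 3 for Dusp1, Dusp2, Dusp5, both Spry4 probes and Spred1.

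Dusp1 is the classic immediate early phosphatase of the family, induced by stress and by serum. Its level was 4.51 times the 75th percentile in MSCs, 2.44 times in COS1NR and 1.18 times in MFH1NR. The order was MSCs, then COS1NR, then MFH1NR, with all 3 spots well above background. The log2 ratio to MSCs was -1.94 in MFH1NR and -0.89 in COS1NR, and the latter is smaller than the 90th percentile of the difference between probes of a gene. Dusp1 was 2.07-fold lower in MFH1NR than in COS1NR. No other measured member was this much lower in MFH1NR than in COS1NR. With scaling by the spike-in probes that difference was -0.26 in log2.

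Dusp2 is best known as an inducible phosphatase of activated leukocytes. Its level was 1.51 in MSCs, against 0.00821 for COS1NR and 0.00640 for MFH1NR, in multiples of the 75th percentile. The spot was bright in MSCs only, and it was not well above background in the sarcomas, with an intensity of 6.35 for COS1NR and 6.37 for MFH1NR. Set against the lowest intensity well above background on each array, Dusp2 was lower than in MSCs by at least 39.6-fold for COS1NR and at least 49.8-fold for MFH1NR. Both bounds depend on the processing. With dim intensities on all arrays raised to the same limit, the log2 ratio was -5.31 in each sarcoma, and under normexp it was -3.87 for COS1NR and -4.17 for MFH1NR. No ratio between the sarcomas can be given.

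Leukocyte transcripts differed between the arrays in the same direction as Dusp2. Of 12 macrophage and leukocyte markers, 11 had a named probe and 9 were well above background in MSCs, and these 9 were at least 2-fold lower in each sarcoma, beside 22.3% of all genes used for COS1NR and 23.2% for MFH1NR. A gene that passed the filter only in MSCs, as Ptprc and Itgam did, could only be lower elsewhere. Also well above background were 7 of the 9 in COS1NR, with log2 ratios from -8.28 to -1.58, and 6 in MFH1NR, with log2 ratios from -8.36 to -3.65. The summed level over the 11 genes was 116 times the 75th percentile in MSCs, 12.3 in COS1NR and 4.91 in MFH1NR. The T cell marker Cd3e was not well above background on any array. Csf1r, the receptor for the growth factor of macrophages, had a log2 ratio to MSCs of -4.97 for COS1NR and -5.42 for MFH1NR. The log2 ratio of Tyrobp, an adaptor of myeloid receptors, was -8.28 and -8.36. The part of these cells in the level of Dusp2 or of any other member was not tested, and in such bulk RNA fewer cells of a type cannot be told apart from less RNA per cell. The 5 MSC markers Nt5e, Eng, Thy1, Cd44 and Vcam1 were well above background in MSCs. At least 2-fold lower than in MSCs were 4 of them in COS1NR and 3 in MFH1NR, beside 22.3% and 23.2% of all genes used. Eng, counted in both, was well above background only in MSCs and so could only be lower elsewhere. Thy1 had a log2 ratio of -0.83 in MFH1NR. The probes of Cd44 gave -0.57 and -1.93 for COS1NR, and -0.93 and -0.10 for MFH1NR. Of 6 osteoblast markers with a probe, 5 were well above background in COS1NR, the osteosarcoma line, and all 6 in MFH1NR. Among them 4 were at least 2-fold lower and none higher in COS1NR, beside 22.3% and 21.7% of all genes used. In MFH1NR 2 were lower and 2 higher, beside 23.2% and 20.8%. These counts take Col1a1 at the probe with the higher mean over the arrays, with log2 ratios of -0.33 and -0.38, while its other probe gave -3.69 and -3.35. Ibsp, or bone sialoprotein, had log2 ratios of -3.82 and -7.43, whereas Spp1 had -1.09 and 1.29. Sp7 was at least 3.58-fold higher in MFH1NR than in MSCs. It was well above background only in MFH1NR and so could only be higher there.

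Dusp4, a nuclear phosphatase related to Dusp1, was barely measured. Its intensity was 11.8 in MSCs, against 29.7 for COS1NR and 35.0 for MFH1NR, where the lowest intensity well above background was 17.9, 29.4 and 30.1. Only the spot of MFH1NR was called well above background, so no ratio of COS1NR to MSCs is given. The bound for MFH1NR over MSCs was 1.16-fold from the limit of the MSC array, but the log2 ratio was 0 with both arrays raised to the same limit and -0.26 under normexp. No direction is therefore given for Dusp4.

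Dusp5, the ERK-selective phosphatase of the nucleus, had the widest gap to MSCs among the members well above background on all 3 arrays. Its level was 55.4 times the 75th percentile in MSCs, 6.34 times in COS1NR and 10.4 times in MFH1NR. MSCs were far above both sarcomas, and MFH1NR lay above COS1NR. Dusp5 was 8.74-fold lower in COS1NR and 5.33-fold lower in MFH1NR than in MSCs, with a log2 ratio between -3.40 and -2.73 in COS1NR and between -2.41 and -1.66 in MFH1NR over all settings tried. The log2 ratio of MFH1NR over COS1NR was 0.71, and 1.51 with spike-in scaling. This is the gene whose promoter carries the pair of CArG boxes printed above.

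Dusp9, a cytoplasmic phosphatase with a preference for ERK, was the only measured member at least 2-fold apart from MSCs in opposite directions. Its level was 0.121 in MSCs, against 0.0443 for COS1NR and 0.592 for MFH1NR, and the COS1NR spot was not well above background. MFH1NR was the highest and COS1NR the lowest. Dusp9 was 4.89-fold higher in MFH1NR and 2.74-fold lower in COS1NR than in MSCs, which leaves it 13.4-fold higher in MFH1NR than in COS1NR. Its intensity in COS1NR, 34.3, lay above 29.4, the lowest one well above background on that array. Both values that use COS1NR are therefore as measured and not bounds. Under normexp the log2 ratio of COS1NR over MSCs was -0.91, so the lower level in COS1NR no longer reached 2-fold, whereas that of MFH1NR over MSCs ranged from 1.47 to 3.04 over all settings tried. The log2 ratio of MFH1NR over COS1NR was 3.74 as reported and 2.37 under normexp, so the 13.4-fold difference holds for the processed intensities but not for that correction. The difference between the sarcomas has no replicate check and was not tested.

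Spry2, which is induced by growth factors and blocks the route from receptor to Ras, separated the sarcomas from each other. Its level was 0.585 in MSCs, against 0.177 for COS1NR and 0.613 for MFH1NR, all well above background. COS1NR was low and, under this scaling, the other arrays were close together. Spry2 was 3.30-fold lower in COS1NR than in MSCs. The log2 ratio of MFH1NR over MSCs was 0.07, which is no larger than the SD of replicate spots, but it depended on the scaling, with 0.82 without scaling, 0.59 with spike-in scaling and -0.02 under normexp. Spry2 was 3.46-fold higher in MFH1NR than in COS1NR. That log2 ratio was 1.79, against 2.58 with spike-in scaling and 1.32 under normexp.

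Spry4, a Sprouty protein that acts on the same route, was measured by 2 probes. The brighter probe had a level of 3.35 in MSCs, against 0.490 for COS1NR and 1.14 for MFH1NR. The dimmer probe had a level of 0.319 in MSCs, 0.0374 in COS1NR, where it was not well above background, and 0.0811 in MFH1NR. Both probes gave the order MSCs, MFH1NR, COS1NR. Against MSCs, Spry4 was 6.84-fold lower in COS1NR by the brighter probe and at least 8.39-fold lower by the dimmer one. In MFH1NR it was 2.94-fold lower by the brighter probe and 3.93-fold lower by the dimmer one. MFH1NR was 2.33-fold higher than COS1NR by the brighter probe and at least 2.14-fold higher by the dimmer one. For the brighter probe that log2 ratio was 1.22, against 2.01 with spike-in scaling.

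Spred1, a relative of the Sprouty proteins that recruits the Ras inhibitor neurofibromin to the membrane, had the same order. Its level was 0.563 in MSCs, against 0.139 for COS1NR and 0.198 for MFH1NR, all well above background. MSCs were high, and MFH1NR lay above COS1NR. Spred1 was 4.06-fold lower in COS1NR and 2.85-fold lower in MFH1NR than in MSCs. For COS1NR that log2 ratio was -2.02, against -1.42 under normexp. The log2 ratio of MFH1NR over COS1NR, 0.51, is smaller than 0.59, the 90th percentile of the difference between probes of a gene in that comparison, but it was 1.31 with spike-in scaling and 0.88 without scaling.

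**Figure D2:**
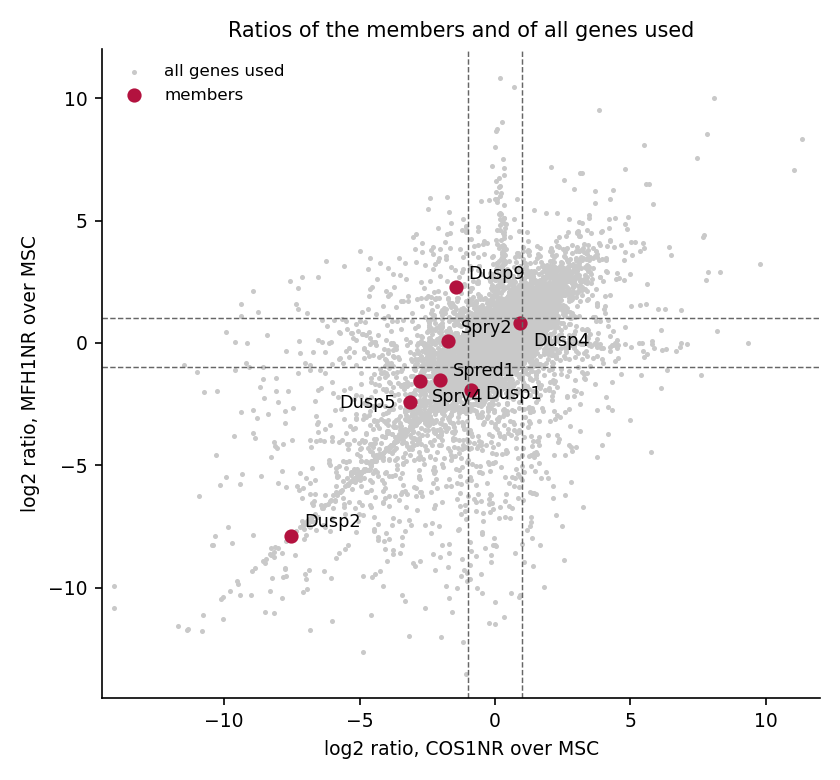
Log2 ratio of COS1NR over MSCs (x axis) and of MFH1NR over MSCs (y axis) for the 8 measured members (red, named) and all 10009 genes used (grey), with dashed lines at 2-fold and values below background drawn as measured. Dusp2, Dusp5, Spry4 and Spred1 lie past 2-fold in the lower left, Dusp9 lies in the upper left, and the axes share the MSC array, which by itself aligns the points along the diagonal.

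The choice of scaling moved the members together. Without any scaling between arrays, the log2 ratio of MFH1NR over MSCs was -0.80 for Spry4 and -0.75 for Spred1, so neither reached 2-fold, and that of Dusp5 was -1.66. The lower levels in COS1NR were less affected, with log2 ratios without scaling of -2.73 for Dusp5, -2.38 for Spry4 and -1.33 for Spry2. Dusp2 stayed at least 2-fold lower in both sarcomas under all 10 alternatives that applied to it.

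**Figure D3:**
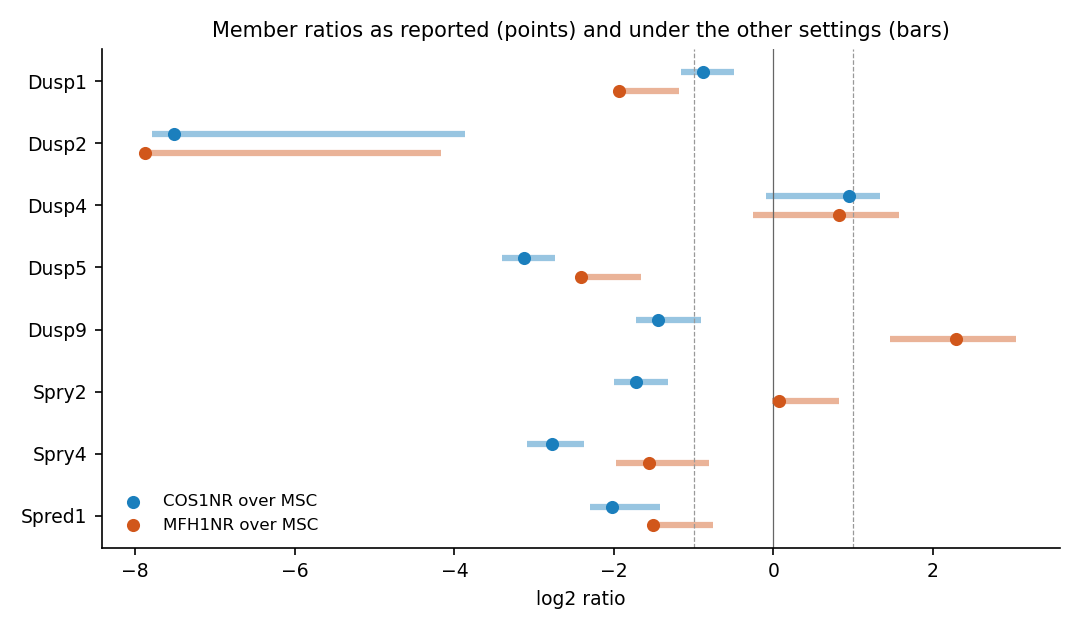
Log2 ratio of each member to MSCs in COS1NR (blue) and MFH1NR (orange), as reported (points) and over the other scalings, background corrections and probes tried (bars), with dashed lines at 2-fold. The bars of Dusp5 and Dusp2 stay past 2-fold lower in both sarcomas, those of Dusp4 cross 0, and those of Spry4 and Spred1 in MFH1NR end short of 2-fold.

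Most genes next to the members on the chromosome were within 2-fold of their level in MSCs, 26 of 32 in COS1NR and 20 of 32 in MFH1NR, beside 56.0% of all genes used in each comparison. The share for MFH1NR, 62.5%, is near that of all genes. Of these neighbours, taken as the 2 nearest measured genes on each side of each member in the GRCr8 annotation, 3 were at least 2-fold lower and 3 at least 2-fold higher in COS1NR than in MSCs. In MFH1NR, 5 were at least 2-fold lower and 7 at least 2-fold higher. The median log2 ratio of the neighbours was -0.09 in COS1NR and -0.08 in MFH1NR. Beside Dusp5, Smndc1 had a log2 ratio to MSCs of -0.35 for COS1NR and -0.29 for MFH1NR, and Smc3 one of 0.67 and 1.56. Beside Dusp9 on the X chromosome, Slc6a8 had log2 ratios of 0.57 and 1.01, and Bgn had ones of -2.22 and -4.76. Thbs1, beside Spred1, had -3.48 and -3.55, and Nr3c1, beside Spry4, had 2.20 and 1.43.

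Other genes of the same pathway, from lists chosen by function, give the setting of these values. Among 12 other Sprouty family and receptor-level inhibitors, 7 were used, of which 3 were at least 2-fold lower and none at least 2-fold higher in COS1NR, beside 22.3% and 21.7% of all genes used. In MFH1NR, 3 were lower as measured and 2 when levels under the background limit were raised to it, and none was at least 2-fold higher, beside 23.2% and 20.8%. Dok2 and Spry3, which are among those counted as lower, were well above background only in MSCs and so could only be lower elsewhere. The list's median log2 ratio was -0.48 in COS1NR and -0.81 in MFH1NR, or -0.48 and -0.39 with levels raised to the limit. Spred2, the nearest relative of Spred1, was not well above background on any array. Errfi1, a feedback inhibitor of the EGF receptor that was chosen after its values were seen, had log2 ratios of -3.55 and -3.70, a lower level in both sarcomas like that of Dusp5 and Spry4. Spred3 and Il17rd had no named probe and were not analysed here.

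Of 8 other MAP kinase phosphatases, 3 were used, and Dusp7 and Dusp10 had no named probe. In COS1NR 1 of the 3 was at least 2-fold lower and none higher, beside 22.3% and 21.7% of all genes used, and in MFH1NR none was lower and 2 were higher, beside 23.2% and 20.8%. Dusp16, which acts mainly on JNK, had a log2 ratio to MSCs of 0.73 for COS1NR and 1.26 for MFH1NR, and its dimmer probe gave 0.53 and 0.85, under 2-fold in both. Ptpn7, a phosphatase of ERK and p38 known from blood cells, had an intensity of 271 in MSCs, against 11.3 for COS1NR and 6219 for MFH1NR. The COS1NR spot was not well above background, and Ptpn7 was 13.6-fold higher in MFH1NR and at least 12.1-fold lower in COS1NR than in MSCs. The pattern over the arrays was that of Dusp9, low in COS1NR and high in MFH1NR.

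Of the genes of the kinase cascade that the members act on, 12 of 16 were within 2-fold of their level in MSCs in each sarcoma, beside 56.0% of all genes used. Of 16 genes used from the Ras, Raf, MEK and ERK list, 2 were at least 2-fold lower and 2 at least 2-fold higher in COS1NR, with a median log2 ratio of -0.01. In MFH1NR, 1 was lower and 3 were higher, with a median of 0.03. Rps6ka2, the 1 lower in MFH1NR and also counted in COS1NR, was well above background only in MSCs. It could therefore only be lower elsewhere. Mapk3, which encodes an ERK kinase, had a log2 ratio to MSCs of -0.03 for COS1NR and -0.98 for MFH1NR. The MEK genes had log2 ratios of -1.18 and -0.99 for Map2k1 and of 0.19 and -0.33 for Map2k2. Kinase activity was not measured. Upstream of them, 9 of 13 receptor tyrosine kinases used were at least 2-fold lower in COS1NR and 9 in MFH1NR as measured, or 9 and 8 with levels raised to the limit, beside 22.3% and 23.2% of all genes used. The higher ones numbered 2 and 1, beside 21.7% and 20.8% of all genes used, or 1 and 0 at the limit. Erbb3, counted as lower in both sarcomas, was well above background only in MSCs and so could only be lower elsewhere. The receptors had a median log2 ratio of -2.86 for COS1NR and -2.68 for MFH1NR, or -2.35 and -1.63 at the limit. Fgfr1 and Egfr, chosen after their values were seen, had log2 ratios of -3.25 and -3.68 to MSCs for COS1NR, and of -3.02 and -3.83 for MFH1NR. The other Egfr probe gave -6.07 for COS1NR and -8.27 for MFH1NR, where neither spot was well above background. Erbb2, with -0.29 and -0.27, and Fgfr4, with -0.51 and -0.06, were within 2-fold. Among the JNK and p38 kinases, 9 were used, with a median log2 ratio to MSCs of -0.91 for COS1NR and 0.19 for MFH1NR. In COS1NR 4 of these were at least 2-fold lower, beside 22.3% of all genes used, and in MFH1NR none was, beside 23.2%. Among those lower in COS1NR, Mapk12, Mapk13 and Map2k7 were not well above background there. In each sarcoma 2 were higher, so that the shares of higher genes are near those of all genes used, 21.7% and 20.8%. With levels raised to the limit, 2 were lower in COS1NR and the median was -0.27.

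Transcripts that ERK is known to induce were split in COS1NR and mostly lower in MFH1NR. Of 13 such genes used, 6 were at least 2-fold lower and 4 at least 2-fold higher in COS1NR than in MSCs, beside 22.3% and 21.7% of all genes used, with a median log2 ratio of -0.99. In MFH1NR, 9 were lower and 1 was higher, beside 23.2% and 20.8%, with a median of -1.42, or -1.28 with levels raised to the limit. Egr3, counted as lower in both sarcomas, was well above background only in MSCs and so could only be lower elsewhere. Fos, Fosl1 and Phlda1 illustrate the split. Fos had a log2 ratio to MSCs of -0.51 for COS1NR and -2.12 for MFH1NR. Phlda1, a delayed ERK target, had log2 ratios of -1.42 and -2.62. Fosl1, the Fra-1 subunit of AP-1, was at least 2-fold apart in opposite directions, with 1.29 in COS1NR and -1.42 in MFH1NR. Myc was lower in both, with -1.10 and -1.26.

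Other output genes, the PEA3 factors and cyclin D1, were not lower in COS1NR than in MSCs. Etv4 had a log2 ratio to MSCs of 3.74 for COS1NR and 0.90 for MFH1NR, and Etv1 had ones of 1.32 and 1.11. Etv5, which is often induced together with the Sprouty genes, had 0.28 and -1.13. Ccnd1 had 2 probes, with 1.32 and 0.14 by the brighter and 1.90 and 1.07 by the dimmer, so its call in MFH1NR depends on the probe. Between the sarcomas, 8 of the 13 output genes were lower in MFH1NR by 2-fold or more and none was at least 2-fold higher, beside 16.0% and 13.9% of all genes used, while the members had 1 lower and 3 higher. Egr1 had no named probe and was not analysed here.

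**Figure D4:**
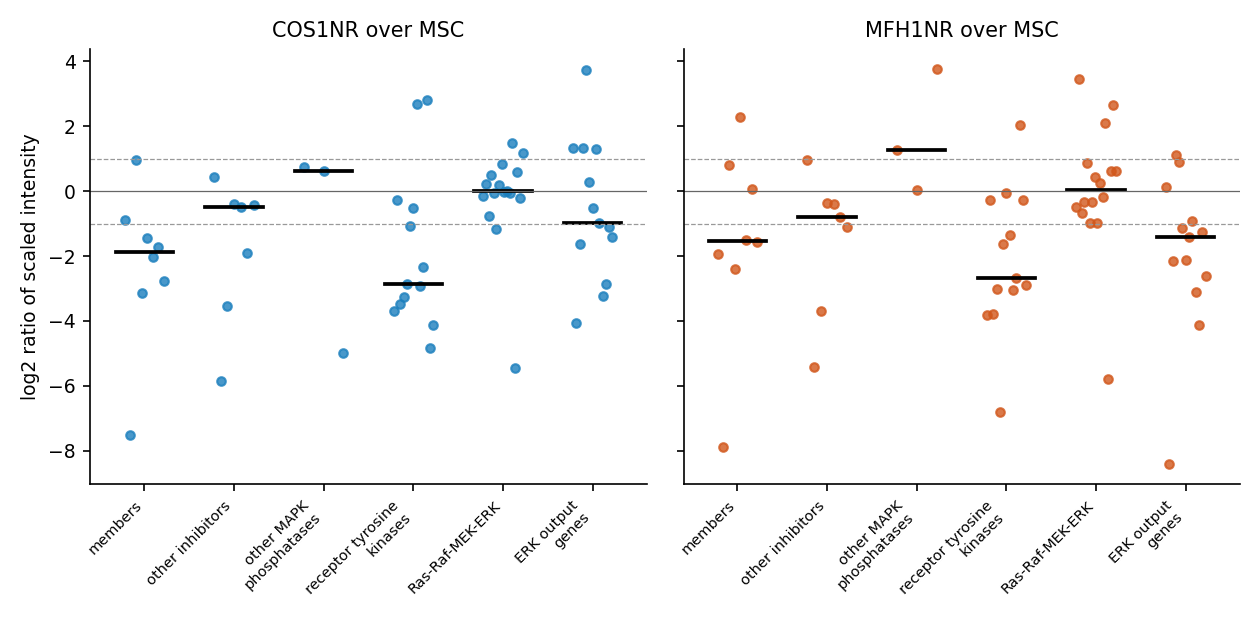
Log2 ratio to MSCs in COS1NR (left) and MFH1NR (right) of each gene used (points) in the members and 5 lists of pathway genes, with the list median (black bars), dashed lines at 2-fold and values below background drawn as measured. The medians of the members, -1.87 and -1.53, lie below 0 in both sarcomas, while those of the Ras, Raf, MEK and ERK genes, -0.01 and 0.03, lie near 0.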

How the data were processed

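RNA of MSCs, COS1NR and MFH1NR was measured on 1 Agilent array each. Per the file headers, the deposited intensities were made by the authors with Feature Extraction 10.5.1.1 (the labels name version 9.1), which subtracted the background and detrended each array, and they are not scaled between arrays. The series table holds the same values. Control and outlier spots were left out, and log2 intensities were taken relative to the 75th percentile of each array. Probes were named by RefSeq accession with the GRCr8 gene table, which gave 16745 probes for 13301 genes. Each gene was represented by the probe with the highest mean log2 intensity over the arrays, and was used if well above background on at least 1 array. Where 1 spot was not well above background, the bound is the brighter level over the higher of the dim level and the lowest level well above background on that array, and where neither was, no ratio is given. Genes past 2-fold were counted without any test, since there was 1 array per cell type. Precision is limited by this number of arrays.

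The members and lists were chosen with earlier results of these data known. Named are all members and a fixed set of kinases, phosphatases, inhibitors and output genes, and defining markers, with exceptions stated. The rule that would have named the genes most like Dusp6 could not be applied. Alternatives were other scalings, background corrections, filters, probe rules and a 3-fold threshold. The counting was tested on simulated data. Python 3.11.15, numpy 2.4.6, pandas 2.3.3, scipy 1.17.1, matplotlib 3.10.9, R 4.3.3 and limma 3.58.1 (normexp) were used.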

Additional observations from a re-analysis of the deposited data

Results flagged for a closer look

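Among the members, Dusp9 was the only one at least 2-fold apart from MSCs in opposite directions in the sarcomas, with a log2 ratio of -1.45 for COS1NR and 2.29 for MFH1NR. Among the pathway genes named, Fosl1 had 1.29 and -1.42, and Ptpn7 had -4.98 and 3.76. The COS1NR spots of Dusp9 and Ptpn7 were not well above background. Ptpn7 was at least 12.1-fold lower in COS1NR than in MSCs. For Dusp9 the 2.74-fold lower level is the measured value and not a bound, and its log2 ratio was -0.91 under normexp. With 1 array per cell type, the difference between the sarcomas was not tested for any of them.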

How the results depend on the processing

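Of the 6 counts of members past 2-fold, recomputed under 12 alternatives, 56 of 72 values were within 1.5 times the count reported. Use of the series table values, which are the same, and dropping the filter on dim probes could not move these counts. Without scaling, 1 member was at least 2-fold higher in COS1NR than in MSCs, 3 were lower and 2 higher in MFH1NR, and 0 were lower in MFH1NR than in COS1NR, beside 32.9%, 15.4%, 41.6% and 11.3% of all genes. With median scaling these were 1 higher in COS1NR, 2 higher in MFH1NR and 0 lower in MFH1NR than in COS1NR, beside 25.9%, 25.9% and 15.0% of all genes. Quantile normalization gave 1 higher in COS1NR and 2 higher in MFH1NR, beside 21.4% and 22.1%. Scaling by 7 spike-in probes gave 2 higher in MFH1NR than in MSCs, and 0 lower and 5 higher in MFH1NR than in COS1NR, beside 34.2%, 8.42% and 34.9% of all genes. Among the 5 members well above background on all arrays, 0 were higher in MFH1NR than in MSCs, beside 18.9% of all such genes. At 3-fold, 3 were lower in MFH1NR than in MSCs and 0 lower than in COS1NR, beside 16.8% and 9.69%. A normexp correction of the median spot intensity (offset 50), chosen after seeing the data because a mean spot intensity was not in the columns used here, gave 0 lower in MFH1NR than in COS1NR, beside 11.9%. No ratio of a member past 2-fold changed sign under the alternatives, while ratios under 2-fold did for Dusp4 in all 3 comparisons, for Spry2 in MFH1NR against MSCs and for Dusp2 between the sarcomas, where neither spot was well above background. The cause of these changes was not tested. No paired analysis was possible because each cell type had 1 array. Spots near the background limit (Dusp4, and Dusp9 in COS1NR) are the least certain.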
